A study of Mus musculus with 2 samples.

Results

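The common gamma chain cytokines and receptors measured here were 8 genes of the 27998 in the files, chosen by name: the cytokines Il2, Il7 and Il15 and the receptor chains Il2ra, Il2rb, Il2rg, Il7r and Il15ra. RNA was counted in single cells from the ear skin of ICR mice aged 7 to 8 weeks. 1 library came from healthy control ears. The other came from ears with allergic contact dermatitis (ACD), a T cell-driven skin inflammation, elicited by 2,4-dinitrofluorobenzene (DNFB). The methods state that male mice were sensitized with 1.0% DNFB on the dorsal skin and given 0.2% DNFB on the ears on day 6, and that ears were taken 60 hr later. The labels name no allele or transgene and do not say how many ears were pooled in a library, or whether the control ears received a vehicle.

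Cytokines of this family signal through receptors that share 1 chain, the common gamma chain encoded by Il2rg. IL-2 binds best to a receptor built of the alpha chain (Il2ra, also CD25), the beta chain (Il2rb) and the common gamma chain, while IL-15 uses the same beta and gamma chains and is usually held on a neighbouring cell by its own alpha chain (Il15ra). IL-7 binds Il7r paired with Il2rg. The receptors pass the signal through Jak1 and Jak3 to Stat5. In skin, IL-7 and IL-15 from stromal and epithelial cells are known to maintain lymphocytes, and IL-2 is known as a product of activated T cells that regulatory T cells depend on.

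The files gave 12895 barcodes and 99037698 UMIs (molecular tags, each counted once) in control and 13163 barcodes and 126566870 UMIs in ACD. Cells were kept if they had more than 200 and fewer than 5000 genes, no more than 25000 UMIs and less than 8% of UMIs from mitochondrial genes. This left 12213 control cells with a median of 6850 UMIs and 11665 ACD cells with a median of 7447 UMIs. 50 barcode sequences occurred in both libraries, 47 of them among the kept cells. Cells were clustered without the 8 genes and their pathway, and clusters were called "-like" from marker genes. The lymphocyte class carried 10 of 10 of its markers, and the dermal fibroblast (dFB) class 7 of 7. Since names were rebuilt from clusters, cell numbers may differ from those of the study. There was 1 library per condition, so no test between conditions was possible. Each interval below is a 95% counting interval, and it does not cover the spread between mice or the clumping of UMIs in single cells.

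A level is the gene's UMI sum in a group of cells per 1000000 UMIs of that group. The log2 ratio is ACD over control. Levels are compared for the same gene across groups of cells, and not between genes.

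The genes lie on 5 chromosomes of GRCm38. Il2ra (chr2:11642807-11693193, plus strand) and Il15ra (chr2:11705290-11734317, plus strand) lie close together, Il2 (chr3:37120523-37125959) and Il7 (chr3:7569994-7613760) share a chromosome, and so do Il7r (chr15:9505788-9530176) and Il2rb (chr15:78479256-78495271). Il2rg lies on chrX:101264378-101268255 and Il15 on chr8:82331632-82403222. The last 6 are on the minus strand, and all are protein coding.

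RefSeq promoters (GRCm38.p6) were matched for 5 of the 8 genes, and the 3 below are shown because they belong to receptor chains whose levels by lymphocyte subset are described here. Il15, Il7 and Il2rb had no entry. Capitals mark matches, on either strand, to TTCNNNGAA (the STAT motif), GGG and CCC with any 4 bases between them (a form of the NF-kappaB motif) and GGAAG or CTTCC (the core of the ETS motif). The first 2 sequences are the 250 bases before the RefSeq start, at chr2:11642542-11642791 (plus strand) for Il2ra and chrX:101268256-101268505 (minus strand) for Il2rg. For Il7r only 29 bases are shown, chr15:9530000-9530028 (minus strand), because the longer annotated gene covers the window.
Il2ra: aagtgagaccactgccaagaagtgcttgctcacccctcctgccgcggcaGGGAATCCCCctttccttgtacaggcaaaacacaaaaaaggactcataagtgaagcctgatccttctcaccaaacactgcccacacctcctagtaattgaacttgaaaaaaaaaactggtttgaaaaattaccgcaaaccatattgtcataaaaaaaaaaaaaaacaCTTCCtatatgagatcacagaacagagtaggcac
Il2rg: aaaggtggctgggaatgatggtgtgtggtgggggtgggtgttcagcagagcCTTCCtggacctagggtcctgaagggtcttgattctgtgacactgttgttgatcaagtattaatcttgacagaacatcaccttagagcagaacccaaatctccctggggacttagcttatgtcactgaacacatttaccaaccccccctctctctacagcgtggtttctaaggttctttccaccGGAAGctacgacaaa
Il7r: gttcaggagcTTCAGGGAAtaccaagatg
Il2ra held the NF-kappaB form in the distal part of the window and CTTCC 34 bases before the start. Il2rg held CTTCC 199 bases and GGAAG 15 bases before it, and Il7r held TTCNNNGAA 142 bases before its RefSeq start. Of 32851 promoters of this length, 7.02% held TTCNNNGAA, 10.3% held the NF-kappaB form and 64.1% held GGAAG, so the ETS core is common. A match of letters is a description and not a binding site.

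The receptor chains were highest in different lymphocyte subsets, although gamma-delta T-like and ILC2-like cells ranked high for both Il2ra and Il7r. Il2ra was highest in cells resembling regulatory T cells (Treg-like), Il2rb in NK/ILC1-like cells and in cells resembling dendritic epidermal T cells (DETC-like), and Il7r in ILC2-like and gamma-delta T-like cells. Il2rg was found in every lymphocyte subset within a narrower range. The subsets held, in control and ACD, 54 and 630 CD4+ T-like, 39 and 502 Treg-like, 334 and 493 gamma-delta T-like, 124 and 116 DETC-like and 207 and 87 ILC2-like cells. CD8+ T-like cells numbered 10 and 578 and NK/ILC1-like cells 5 and 619, so these 2 subsets are described in ACD only.

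The subset names were checked against their markers. Foxp3, the defining factor of Treg cells, was at 227 and 232 in Treg-like cells and at no more than 5.57 in any other subset. Eomes (308) and the NK receptor Ncr1 (290) marked NK/ILC1-like cells, and Cd8a (404) marked CD8+ T-like cells. Only 3 of 6 markers of CD4+ T cells were at least 2-fold higher in CD4+ T-like cells, and 3 of 5 markers of DETC in DETC-like cells. In ILC2-like cells 6 of 8 markers of ILC2 were more than 2-fold higher. They carried Gata3 (272 in control and 266 in ACD) and Il13 (149 and 306). In control, however, CD4+ T-like cells had Gata3 at 245 and DETC-like cells Il13 at 186. The ILC2 marker Il1rl1 was at 11.3 and 67.0 in ILC2-like cells, against 70.5 and 74.2 in Treg-like cells. ILC2-like cells also carried Cd3g, a T cell receptor chain, at 420 and 484, against 8.51 and 21.5 for Cd3e, so their T cell receptor genes were not uniformly absent.

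**Figure D1:**
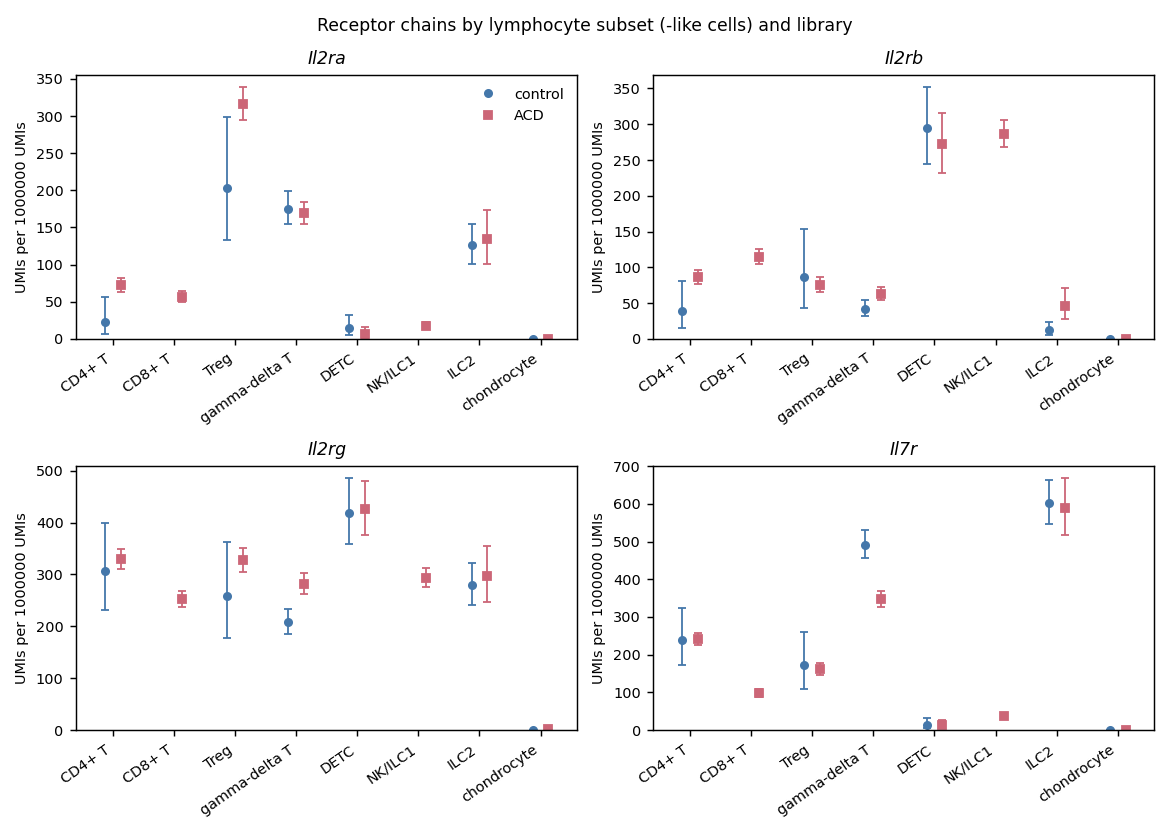
Level of 4 receptor chains (UMIs per 1000000) by lymphocyte subset, with control and ACD as separate points and 95% counting intervals as bars. Groups under 20 cells have no point. The highest level is in Treg-like cells for Il2ra, DETC-like or NK/ILC1-like cells for Il2rb, DETC-like cells for Il2rg and ILC2-like cells for Il7r.

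Il2ra, the chain that gives the IL-2 receptor its high affinity, was at 204 (133 to 298, 26 UMIs) in control Treg-like cells and 317 (295 to 339, 819 UMIs) in ACD (log2 ratio 0.64, 0.08 to 1.26). Gamma-delta T-like cells had 175 in control and 169 in ACD, and ILC2-like cells 126 and 134. In control the intervals of Treg-like and gamma-delta T-like cells overlapped, whereas in ACD Treg-like cells stood above every other named group. CD4+ T-like cells had 22.3 in control, from 4 UMIs, and 72.1 in ACD, from 256 UMIs (log2 ratio 1.69, 0.32 to 3.58). CD8+ T-like cells in ACD had 57.1 (49.9 to 65.0), which overlapped with CD4+ T-like cells. NK/ILC1-like and DETC-like cells were low, at 17.9 and 6.43 in ACD. Pericyte-like cells, outside the lymphocytes, had 17.7 (22 UMIs) in control and 21.7 (23 UMIs) in ACD.

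In cells thinned to 2000 UMIs, so that depth was equal, an Il2ra UMI was found in 37.5% of Treg-like cells in control (12 of 32) and 43.4% in ACD (205 of 472). Without thinning the ACD share was 61.6%. Gamma-delta T-like cells had 26.9% and 24.8%, ILC2-like cells 20.5% and 18.1%, and CD8+ T-like cells 9.51% in ACD. Chondrocyte-like cells, which should lack the gene, had 0.04% and 0.06%, far below the lymphocyte shares. Their Cd3 chains (Cd3e, Cd3d and Cd3g) were at 1.63 and 8.81, against 13.3 and 51.8 in dFB-like cells. Chondrocyte-like cells may thus understate free T cell RNA in other groups. Median depths were 2716 and 4400 UMIs in Treg-like cells and 8108 and 9776 in chondrocyte-like cells.

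Il2rb, the chain shared by the IL-2 and IL-15 receptors, had another order. It was at 295 (245 to 352) in control DETC-like cells and 272 (232 to 316) in ACD, and NK/ILC1-like cells in ACD had 286 (268 to 306), with overlapping intervals. CD8+ T-like cells followed at 114, apart from the groups on either side. CD4+ T-like cells had 39.0 (7 UMIs) in control and 86.7 (308 UMIs) in ACD (log2 ratio 1.15, 0.09 to 2.48). Treg-like cells had 86.1 and 75.4. ILC2-like cells were lowest, at 12.8 (9 UMIs) and 45.5 (19 UMIs) (log2 ratio 1.83, 0.62 to 3.16), but when ILC2-like cells were gated on marker UMIs instead of clusters (48 and 42 cells) the log2 ratio was 0.23. After thinning, a UMI was found in 40.9% of DETC-like cells in control, 44.6% in ACD and 40.9% of NK/ILC1-like cells (244 of 597).

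Il2rg, which all these receptors need, was at 418 (358 to 485) and 426 (377 to 481) in DETC-like cells, the highest level of any subset, although in control its interval overlapped with that of CD4+ T-like cells. The other subsets ranged from 209 to 306 in control and from 253 to 330 in ACD. Gamma-delta T-like cells had 209 in control and 282 in ACD (log2 ratio 0.43, 0.24 to 0.63). The intervals of the ratio contained 0 in the CD4+ T-like, Treg-like, DETC-like and ILC2-like cells. B cell-like cells in ACD had 324 (250 to 412, 52 cells), as high as most T subsets.

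Il7r, the chain that pairs with Il2rg in the IL-7 receptor, was at 603 (547 to 663) in control ILC2-like cells and 589 (518 to 667) in ACD. Gamma-delta T-like cells had 492 (456 to 530) in control and 347 (326 to 369) in ACD (log2 ratio -0.50, -0.64 to -0.36). CD4+ T-like cells had 240 and 242 (log2 ratio 0.01, -0.43 to 0.49), and with marker gates (34 and 616 cells) the log2 ratio was 0.60. Treg-like cells had 172 and 162. In ACD the first 4 subsets in this order did not overlap with each other. CD8+ T-like cells were at 98.3, NK/ILC1-like cells at 36.8 and DETC-like cells at 14.5 in both libraries. DETC-like cells therefore had the highest Il2rg level and the lowest Il7r level of the T subsets.

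The gamma-delta T-like cells held 2 sub-clusters that differed in Il7r. The one led by 5830411N06Rik and Ramp1 had 305 and 212 cells and an Il7r level of 512 in control and 577 in ACD (log2 ratio 0.17, 0.02 to 0.33). The one led by Il17a and Il17f, cytokines of type 17 inflammation, had 29 and 281 cells and levels of 274 and 188 (log2 ratio -0.54, -1.07 to 0.03). Il2rb was ordered the other way, at 35 and 40.6 in the first and 120 and 78.3 in the second. The pooled difference of the gamma-delta T-like cells thus came with a shift in their make-up, and this split was chosen after the values were seen.

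Chains of 1 receptor were also found in the same cells. After thinning, Il2rb and Il2rg were both detected in 24.3% of control and 28.6% of ACD DETC-like cells, 17.3% of NK/ILC1-like and 8.80% of CD8+ T-like cells in ACD, and 0.53% and 2.41% of ILC2-like cells. Il7r and Il2rg were both detected in 28.4% and 28.9% of ILC2-like cells, 18.8% and 15.9% of gamma-delta T-like cells and 2.51% of NK/ILC1-like cells in ACD. All 3 IL-2 receptor chains were detected in 2.97% of ACD Treg-like cells (14 of 472) and in 2.07% of ACD gamma-delta T-like cells. At this depth a chain is missed in many cells that express it, which lowers these shares, while several cells under the same barcode would raise them. The shares were not compared with those that the detection of each chain alone would give.

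Over all T/NK/ILC-like cells (835 in control, 3358 in ACD), the subsets' own levels and their numbers both entered the totals. Il7r was lower in ACD, at 165 against 376 (log2 ratio -1.19, -1.28 to -1.09). Il2rb was higher, at 120 against 74.2 (log2 ratio 0.70, 0.51 to 0.89). Il2ra had a log2 ratio of -0.23 (-0.38 to -0.08) and Il2rg one of 0.13 (0.02 to 0.23). From such totals alone, fewer cells of a subset and less RNA per cell cannot be told apart.

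The make-up of the class differed between the libraries. Gamma-delta T-like cells gave 41.5% of the class's UMIs in control and 13.6% in ACD, and ILC2-like cells, the subset with the most Il7r, 20.8% and 1.97%. CD8+ T-like cells went from 1.11% to 19.0% and NK/ILC1-like cells, low in Il7r, from 0.472% to 15.0%. When the ACD levels of 12 sub-clusters were weighted by the control make-up, the Il7r level was 396 and its log2 ratio 0.08. The same weighting gave log2 ratios of 0.14 for Il2rb, -0.01 for Il2ra and 0.20 for Il2rg. This weighting was chosen after the data were seen.

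**Figure D2:**
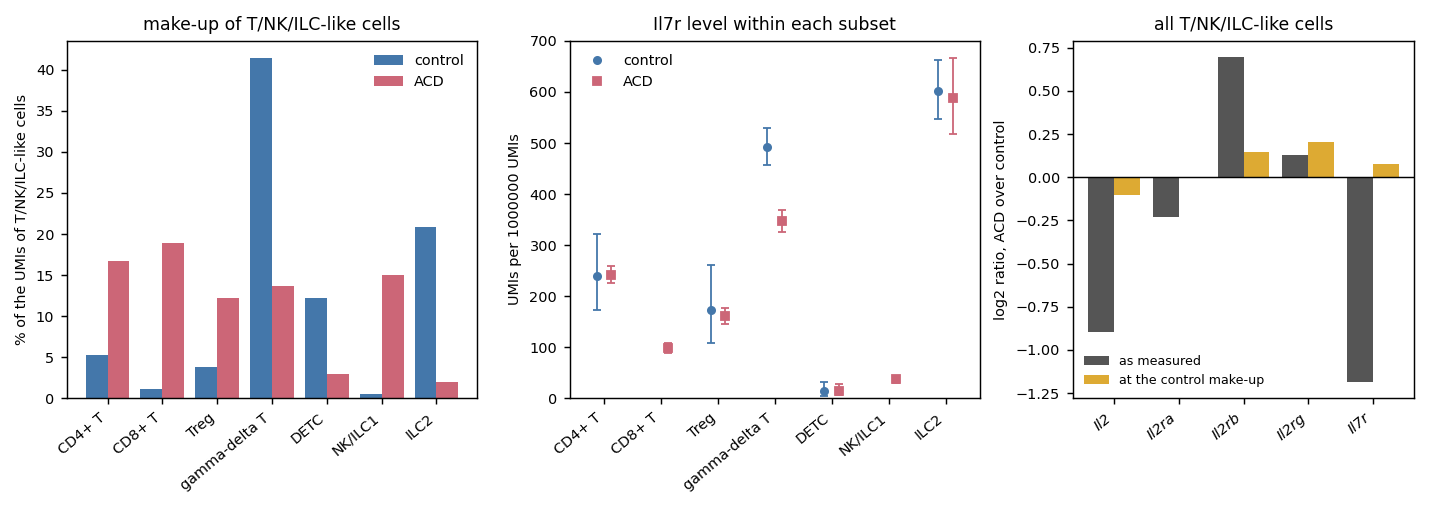
Share of the T/NK/ILC-like class's UMIs by subset in control and ACD (percent), beside Il7r in control and ACD and the difference as measured and at the control make-up. Over the whole class the Il7r level (UMIs per 1000000) is 376 in control, 165 in ACD as measured and 396 in ACD at the control make-up.

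For a fold call, a gene needed at least 50 UMIs in the class over both libraries and a log2 ratio, with 10 UMIs per 1000000 added, of at least 1 in size. In T/NK/ILC-like cells 1.54% of 10359 genes passed upward and 1.4% downward, and Il7r, downward, was the only one of the 6 members with enough UMIs. In CD4+ T-like cells 4.79% passed upward and 1.43% downward, and Il2ra, upward, was the only one of 4. In Treg-like cells (6.98% upward, 3.09% downward) and gamma-delta T-like cells (1.48% and 0.428%) none of 4 members passed. The median log2 ratio of the members was -0.05 in T/NK/ILC-like cells, against -0.08 over all genes tested.

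The pathway list held 22 further genes, 18 of which had enough UMIs in T/NK/ILC-like cells. Il21r, the receptor of another cytokine of the family, was at 11.5 in control and 48.6 in ACD, and the transcription factor Stat5a at 15.7 and 44.4; both passed upward. Within subsets Il21r was at 78.0 and 89.2 in CD4+ T-like cells (log2 ratio 0.19) and at 62.6 and 61.1 in Treg-like cells (log2 ratio -0.04). Il9r, the IL-9 receptor, was at 21.6 and 3.39 and passed downward, while within ILC2-like cells it was at 69.5 and 57.4. The other 15 did not pass. Among them the kinase Jak3, which binds the common gamma chain, was at 8.87 and 22.1 and Stat5b at 22.8 and 46.0, while Jak1 (300 and 322), Mcl1 (424 and 454) and Pim1 (743 and 746) differed little. Cish, a feedback inhibitor that Stat5 is known to induce, was at 218 and 121. The median log2 ratio of the list was 0.10.

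The list also had calls within subsets. In Treg-like cells Jak3 was at 7.83 (1 UMI) and 34.8 (90 UMIs), and the kinase Pim2 at 7.83 (1 UMI) and 30.9 (80 UMIs). Cish was at 313 in control Treg-like cells and 123 in ACD (log2 ratio -1.34, -1.82 to -0.83). In gamma-delta T-like cells the survival factor Bcl2 was at 111 and 43.5, with a log2 ratio of -1.34 (-1.70 to -1.0). In DETC-like cells Il4ra, the IL-4 receptor chain that pairs with Il2rg, was at 101 and 38.6 (log2 ratio -1.39, -2.18 to -0.64). These calls were 2 of 16 genes tested upward (6.98% over all genes) and 1 of 16 downward (3.09%) in Treg-like cells, 1 of 17 downward in gamma-delta T-like cells (0.428%), and 1 of 11 downward in DETC-like cells (0.782%, against 2.21% upward). None of 17 passed in CD4+ T-like cells.

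**Figure D3:**
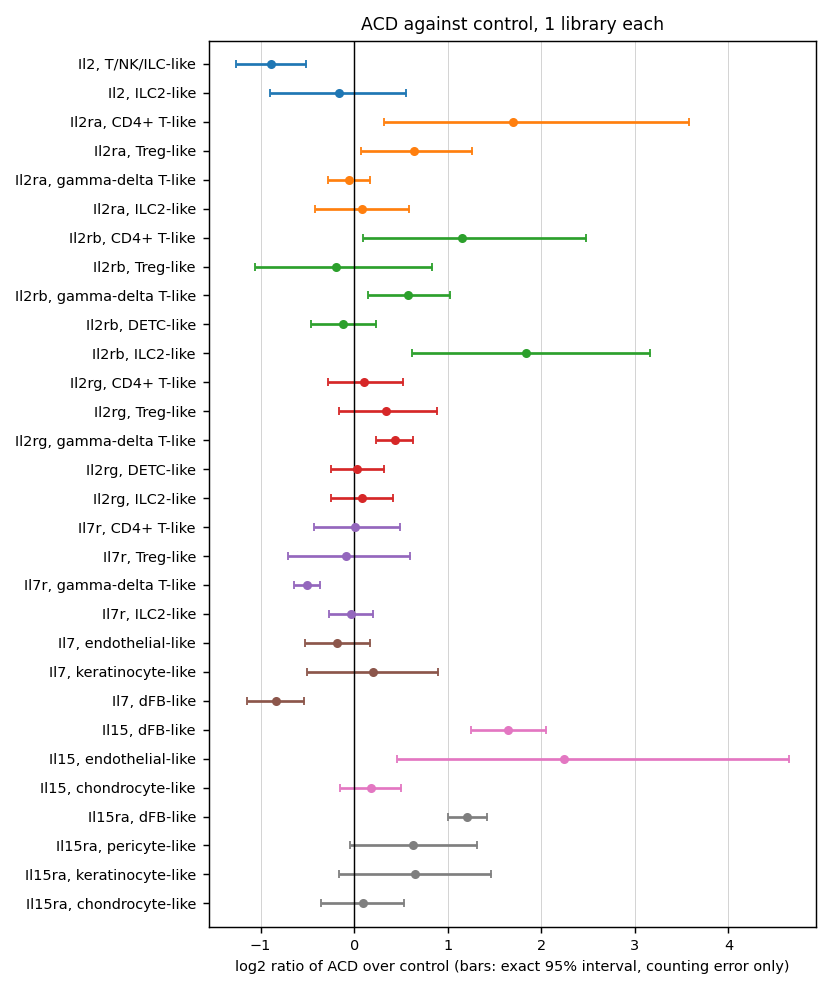
Log2 ratio of ACD over control for the member genes in groups of cells, with 95% counting intervals. Il15 and Il15ra in dFB-like cells lie at 1.64 and 1.21.

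Among the cytokines, Il2 had its highest levels in lymphocyte subsets. T/NK/ILC-like cells gave 29.8% of its UMIs in control, where the larger classes at background level gave much of the rest, and 61.5% in ACD. ILC2-like cells had the highest level in both libraries, at 69.5 (51.4 to 91.9, 49 UMIs) in control and 62.2 (40.7 to 91.2, 26 UMIs) in ACD (log2 ratio -0.16, -0.90 to 0.56). In ACD 3 cells gave 14 of the 26 UMIs, and without them the level was 30.4 (15.7 to 53.1). An Il2 UMI was found in 29 of 207 and 14 of 87 ILC2-like cells. After thinning the shares were 8.95% and 7.23%, against 0.65% and 0.42% in chondrocyte-like cells. DETC-like cells had 7.25 (3 UMIs) and 22.5 (14 UMIs).

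CD8+ T-like cells in ACD held the most Il2 UMIs, 130 of the library's 434, at a level of 32.3 (27.0 to 38.3). They lay in 23 of 578 cells, and 3 cells with 44, 26 and 23 UMIs gave 71.5% of them. Without these 3 cells, an alternative chosen after seeing the data, the level was 9.27 (6.53 to 12.8), while CD4+ T-like cells had 9.85 with all cells and 6.51 (4.13 to 9.77) without their own top 3. Treg-like cells had 5.41 in ACD, with 8 of 14 UMIs in 1 cell, and NK/ILC1-like cells 1.89. The levels of 2.37 and 1.99 in chondrocyte-like cells and of 1.72 and 1.64 in dFB-like cells, with no cell above 2 UMIs, mark the background of this gene. Over all T/NK/ILC-like cells Il2 was at 23.4 and 12.6 (log2 ratio -0.89, -1.26 to -0.51), and at the control make-up the log2 ratio was -0.11.

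Il7 was a stromal and epithelial transcript. Endothelial-like cells had by far the highest level, at 109 (91.1 to 129) in control and 95.7 (81.0 to 112) in ACD (log2 ratio -0.18, -0.53 to 0.16). Keratinocyte-like cells had 16.0 and 18.4, and dFB-like cells 13.8 (12.5 to 15.2) and 7.72 (6.39 to 9.25) (log2 ratio -0.83, -1.14 to -0.53). Chondrocyte-like cells, at 0.345 and 0.398, and the lymphocyte subsets, at no more than 0.387, lay near 0. Because dFB-like cells were many, they gave 62.9% of all Il7 UMIs in control and 32.3% in ACD, and the 168 and 136 endothelial-like cells gave 21.1% and 41.1%.

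Within the endothelial-like cells Il7 lay mostly in those with lymphatic markers. Cells with a UMI of Lyve1, Mmrn1 or Flt4 after thinning, genes known from lymphatic vessels, had 126 (104 to 150, 118 cells) in control and 146 (123 to 172, 87 cells) in ACD. Cells without one had 47.7 (24.6 to 83.3, 37 cells) and 13.5 (5.83 to 26.6, 48 cells). The 2 sets did not overlap in either library. Their median depths were alike in control, at 6040 and 5813 UMIs, and in ACD the cells with a lymphatic marker were the shallower, at 10125 against 12101. This gate was chosen after the data were seen.

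Among dFB-like clusters Il7 was lower in ACD in each of the 3 with the most control cells. The cluster led by Cyp2f2 and Aldh1a1 had 21.4 and 12.8, that led by Postn and Tnc 11 and 3.41, and that led by Sfrp4 and Mfap5 9.81 and 4.29. The intervals of the 3 log2 ratios, -0.75 (-1.56 to -0.03), -1.69 (-3.03 to -0.61) and -1.19 (-2.03 to -0.41), lay below 0. The cluster led by Saa3 and the chemokine gene Cxcl9 had 5 control and 483 ACD cells, and an Il7 level of 10.8 in ACD. At the control make-up of clusters the log2 ratio of dFB-like cells was -1.14.

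**Figure D4:**
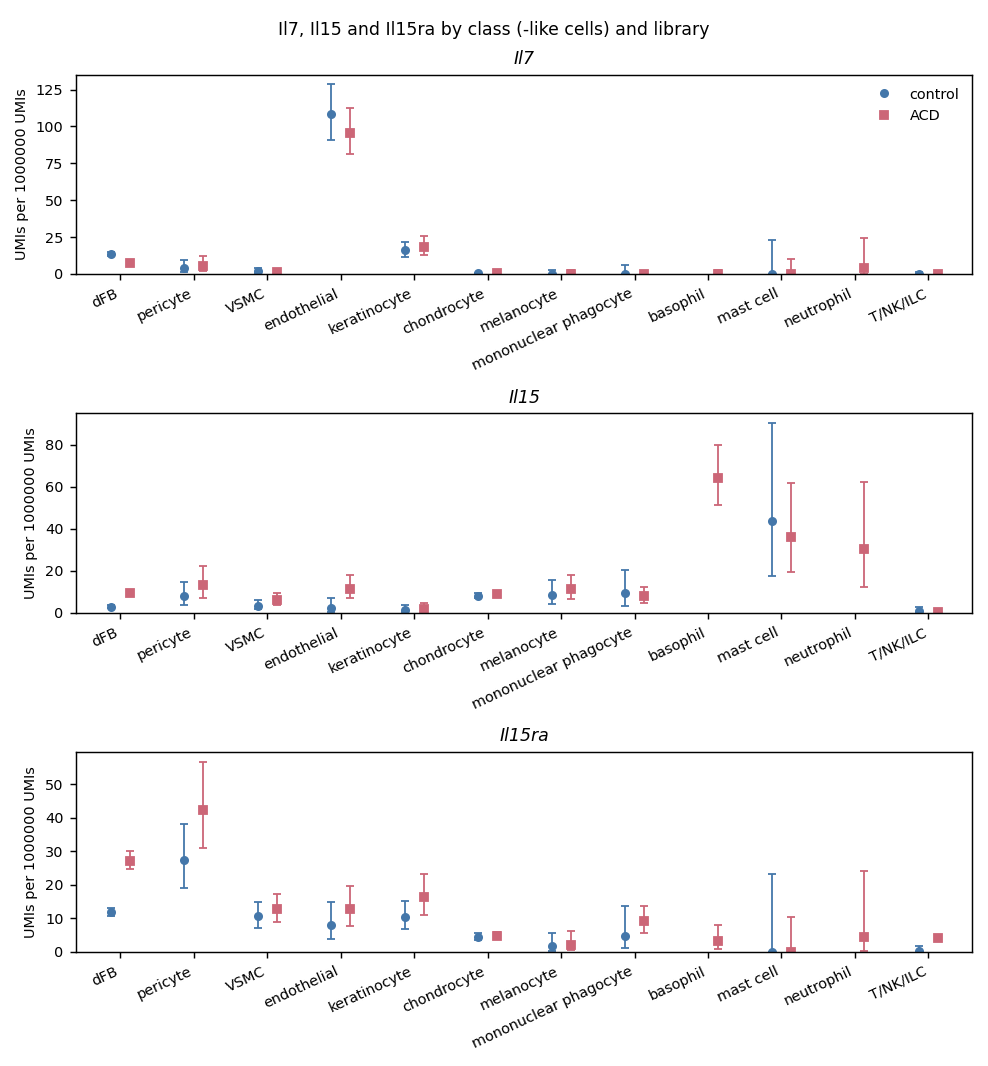
Level of Il7, Il15 and Il15ra (UMIs per 1000000) by class of cells, with control and ACD as separate points and 95% counting intervals. Groups under 20 cells have no point. Among the classes plotted, Il7 is highest in endothelial-like cells (109 and 96), Il15 in basophil-like cells in ACD (64) and Il15ra in pericyte-like cells (27 and 42).

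Il15, which lymphocytes receive from other cells, was, among named classes, highest in basophil-like cells in ACD, at 64.3 (51.2 to 79.7), with 83 UMIs in 65 of 269 cells. Control had 9 basophil-like cells, under the 20 cells asked of a group. Mast cell-like cells had 43.8 (7 UMIs) and 36.2 (13 UMIs), and neutrophil-like cells in ACD 30.3 (7 UMIs). Their intervals overlapped with each other. Chondrocyte-like cells had 7.99 and 9.03 (log2 ratio 0.18, -0.15 to 0.50), and, being many, gave 30.2% and 20% of all Il15 UMIs. The clusters given no name together held more, with 215 of 537 Il15 UMIs in control and 255 of 796 in ACD. T/NK/ILC-like cells were low, at 0.887 and 0.518.

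dFB-like cells had an Il15 level of 2.96 (2.37 to 3.65, 86 UMIs) in control and 9.23 (7.77 to 10.9, 141 UMIs) in ACD (log2 ratio 1.64, 1.24 to 2.05). Endothelial-like cells had 2.43 (3 UMIs) and 11.5 (18 UMIs) (log2 ratio 2.24, 0.46 to 4.64). In these cells the ACD level was 4.11 with and 23.6 without a lymphatic marker, the reverse of Il7. Phagocyte-like cells had 9.39 and 7.83. Of their 6 and 19 Il15 UMIs, 3 and 10 lay in the 5 and 15 cells led by Fscn1 and Ccl22, genes of mature dendritic cells.

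Il15ra, the chain that presents IL-15, was, among named classes, highest in pericyte-like cells, at 27.4 (19.0 to 38.3) and 42.4 (30.9 to 56.7) (log2 ratio 0.63, -0.04 to 1.32). dFB-like cells had 11.8 (10.6 to 13.1, 342 UMIs) and 27.2 (24.7 to 30, 416 UMIs) (log2 ratio 1.21, 1.0 to 1.42). Keratinocyte-like cells had 10.4 and 16.2, vascular smooth muscle-like cells 10.5 and 12.6, and chondrocyte-like cells 4.49 and 4.77. In control these last classes and dFB-like cells overlapped, apart from the chondrocyte-like cells, and in ACD dFB-like cells stood second, apart from the groups above and below. T/NK/ILC-like cells had 0.296 (1 UMI) and 4.0 (85 UMIs).

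Both genes varied among the dFB-like clusters. The cluster led by Saa3 and Cxcl9, which was nearly all from ACD, had 13.4 (10.7 to 16.4) for Il15 and 39.8 (35.2 to 44.9) for Il15ra. In the cluster led by Sfrp4 and Mfap5, with 613 and 414 cells, Il15 was at 5.12 and 8.15 and Il15ra at 13.2 and 18.9. In that led by Postn and Tnc, Il15 was at 1.67 and 1.46 and Il15ra at 11 and 17.6. At the control make-up of clusters the log2 ratios of dFB-like cells were 0.48 for Il15 and 0.46 for Il15ra.

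**Figure D5:**
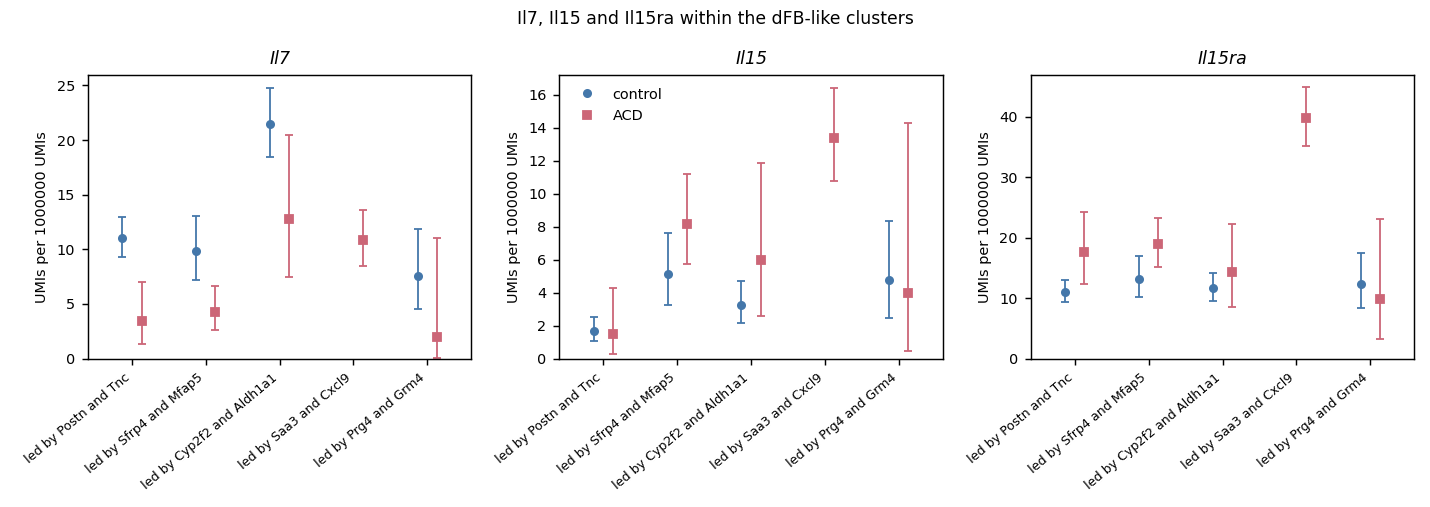
Level of Il7, Il15 and Il15ra (UMIs per 1000000) in the dFB-like clusters named by their leading genes, in control and ACD, with 95% counting intervals. The cluster led by Saa3 and Cxcl9 has the highest Il15 (13.4) and Il15ra (39.8) in ACD.

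A gate on Cxcl9 and Cxcl10, chemokines that draw T cells, was set beside the clusters. ACD dFB-like cells with a UMI of either gene after thinning (330 cells) had 15.4 (12 to 19.4) for Il15 and 41.1 (35.4 to 47.4) for Il15ra. The 900 cells without had 6.62 (5.17 to 8.36) and 21.4 (18.7 to 24.3). Il7 was at 9.01 and 7.18, with overlapping intervals. The cells with a chemokine UMI were the deeper, with a median of 13498 against 11236 UMIs. Il15 and Il15ra were detected together in 1 of 1230 thinned ACD dFB-like cells, so that whether the same cells carry both could not be read at this depth.

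In dFB-like cells 0.965% of 12127 genes passed the fold call upward and 0.132% downward, and none of the 8 members and none of 16 pathway genes did on this scale, on which 10 UMIs per 1000000 are added to each level. The median log2 ratio was 0.22 over the members and -0.02 over all genes tested. Socs1, an inhibitor that interferon gamma is known to induce, was at 132 and 235.

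Receptor chains were also counted outside the lymphocytes. In endothelial-like and dFB-like cells T cell markers were higher in ACD along with Il2rg. In endothelial-like cells Il2rg was at 11.4 (14 UMIs) and 50.4 (79 UMIs) (log2 ratio 2.15, 1.32 to 3.09), and passed the fold call, against 2.61% of 6208 genes upward and 1.53% downward. Of the 10 T/NK/ILC markers, 9 had a UMI in control endothelial-like cells and 10 in ACD, with a summed level of 331 and 446, and Ncr1 was at 0 in control. The Cd3 chains alone were at 19.5 and 83.0, so that Il2rg per 100 Cd3 UMIs was 58.3 and 60.8, against 10.3 and 12.6 in T/NK/ILC-like cells. None of 14 pathway genes passed.

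In dFB-like cells Il2rg was at 1.72 and 5.63, beside Cd3 chains at 13.3 and 51.8. The T/NK/ILC markers with a UMI were 9 of 10 and 10 of 10, with summed levels of 306 and 485. The Cd3 chains, which are among these markers, were a small part of the sums, and whether the rest was T cell RNA was not tested. Chondrocyte-like cells had 0.493 and 2.44 for Il2rg, with summed marker levels of 7.25 and 24.6. The part of these markers in the Il2rg values was not tested.

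Basophil-like, mast cell-like and phagocyte-like cells carried higher levels. Neutrophil-like cells in ACD (71 cells) had Il2rg at 38.9 (9 UMIs) and no Il7r UMI. Il2rg was at 130 (111 to 151) in ACD basophil-like cells, at 68.9 and 134 in mast cell-like cells and at 29.7 and 67.6 in phagocyte-like cells. Il7r was at 99.2 in ACD basophil-like cells and at 125 and 105 in phagocyte-like cells, where it was highest in Langerhans-like cells, at 249 (32 cells) and 269 (28 cells), and in a sub-cluster led by Cox6a2 and Siglech, found only in ACD, at 264 (206 to 334, 38 cells). The Langerhans-like cells had a UMI of 9 and 10 of the 10 T/NK/ILC markers, with summed levels of 931 and 1065, and basophil-like cells one of all 10, with a summed level of 672. The part of T cell RNA in these values was not tested. In the sub-cluster led by Cox6a2 and Siglech the Cd3 chains had 1 UMI beside 70 of Il7r. In the whole phagocyte-like class Il2rg was higher in ACD. The summed T/NK/ILC marker level of the class was 407 in control and 307 in ACD, with Cd3 chains at 257 and 160. Langerhans-like cells held 162 of the 164 Cd3 UMIs in control and 302 of 389 in ACD. They were 32 of 85 and 28 of 330 cells, and their own Cd3 level was 601 and 689. The class-wide marker levels thus came with a shift in make-up, and the part of T cell RNA in Il2rg was not tested.

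The genes whose level followed each member most closely were named by Pearson's correlation of log levels over 74 groups of cells (subset, cluster or class by library, 10 UMIs per 1000000 added), as a description, among 15356 genes. These groups share 2 libraries. Il2ra was closest to Il27ra (0.92) and Tnfrsf25 (0.90), Il2rb to Ptpn22 (0.92) and Cd96 (0.91), and Il2rg to Cd69 (0.95), the activation marker. Il7r was closest to Gpr183 (0.92) and Cd69 (0.90). Il7 was closest to Prrt4 (0.89) and Clca3a1 (0.85), Il15ra to Ch25h (0.77), Il2 to Dach2 (0.78), and Il15 to Itga2b (0.70) and Hdc (0.67), the enzyme that makes histamine in basophils and mast cells. Among the members, Il2rg and Il7r were the most alike (0.83) and Il15 and Il15ra were not (0.08).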

How the data were processed

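Ear skin of 2 conditions, 1 library each, was dissociated with collagenase D and DNase1, dead cells were removed by a kit, and libraries were made with 10x Genomics Single Cell 3′ v2 reagents. The deposited values are raw UMI counts per gene and barcode, made by the authors with Cell Ranger against mm10; the labels and file headers give version 3.1.0. The limit of 25000 UMIs, which the methods print as a minimum, was taken here as a maximum.

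Barcodes were filtered, clustered (scanpy 1.11.5, leidenalg 0.10.2; 2000 variable genes without the 8 members, 22 pathway genes and mitochondrial genes, 30 components, 20 neighbours, resolution 1) and named from marker lists, with naming thresholds set after clusters were seen. Of the cells kept, 27.1% stayed unnamed and 1.72% lay in sub-clusters of mixed markers, which were left out. Doublets were called with Scrublet in scanpy (560 control and 392 ACD cells) and removed only as an alternative. Members and lists were chosen with earlier results of these data known.

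Levels are UMI sums per 1000000 with exact Poisson intervals, ratios have exact conditional binomial intervals and shares exact Clopper-Pearson intervals (scipy 1.17.1). In simulated Poisson counts, 96.25% of the ratio intervals in T/NK/ILC-like cells (11462 genes) and 95.73% in dFB-like cells (12122 genes) held the true value. The simulation used the model that the intervals are built on. It therefore could not show how they do where a few cells hold most UMIs of a gene. PCR and capture bias are not covered by counting intervals. With 1 library per condition no test was run. The text could name the members, the pathway list, the 3 genes most like each member and the genes that mark or lead a cluster. Alternatives were other filters, doublet removal, other resolutions, marker gates, median-of-ratios scaling, the mean over cells, other thinning depths and other settings of the fold call.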

Additional observations from a re-analysis of the deposited data

Results flagged for a closer look

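Il2ra and Il7r had log2 ratios of opposite sign in T/NK/ILC-like and dFB-like cells. Il2ra was at -0.233 in T/NK/ILC-like cells and 0.7579 in dFB-like cells, and Il7r at -1.186 and 0.7635. With 1 library per condition the difference between the classes was not tested. The dFB-like levels were low, at 1.24 and 2.09 for Il2ra and 2.24 and 3.80 for Il7r, beside Cd3 chains at 13.3 and 51.8 in the same cells, whose part in these values was not tested. The Il2ra UMIs lay in 19 of 3310 and 23 of 1238 cells, and the Il7r UMIs in 25 and 29. Without the top 3 cells of each library, Il2ra was at 0.83 (0.53 to 1.23) and 1.51 (0.96 to 2.27). Il7r was then at 1.52 (1.10 to 2.03) and 2.69 (1.93 to 3.65), so both pairs of intervals overlapped. In chondrocyte-like cells Il2ra was at 0.148 and 0.284 and Il7r at 0.296 and 0.398. At the control make-up of sub-clusters the log2 ratios in T/NK/ILC-like cells were -0.01 for Il2ra and 0.08 for Il7r.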

How the results depend on the processing

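Of 102 alternative log2 ratios of 11 main results, 85 stayed within the reported interval, 16 moved outside it and 1 reversed. The sign was the same in 101. Of 184 alternative log2 ratios of 22 other results, 174 stayed, 9 moved and 1 reversed, with 165 of the same sign. Shares past the fold call and thinned shares are not in these counts. A share past the fold call was taken as moved when it differed by more than a factor of 1.5. The log2 ratio of Il7r over T/NK/ILC-like cells (-1.186) was -1.307 with all barcodes, -1.073 with a filter of at least 500 genes and under 5% mitochondrial UMIs, -1.073 as the mean over cells, -0.981 with median-of-ratios size factors, -1.036 with mixed sub-clusters put back, and reversed to 0.07652 at the control make-up. That make-up also gave -0.1054 for Il2 (-0.894) and 0.1448 for Il2rb (0.6967), which was 0.9019 with median-of-ratios size factors. In gamma-delta T-like cells Il7r (-0.5029) was -0.7707 with marker gates, -0.8798 at resolution 2 and -0.06203 without Scrublet calls. Without those calls Il2rb there (0.5797) reversed to -0.4405, the group had 29 control and 290 ACD cells, and no cluster was named ILC2-like. In dFB-like cells the control make-up of clusters gave -1.144 for Il7 (-0.8334), 0.4814 for Il15 (1.641) and 0.4594 for Il15ra (1.21). Il15 was 2.149 without Scrublet calls, and Il15ra 1.43 with all barcodes. The cause was not tested. The make-up weighting holds the shares of clusters fixed, but the dFB-like cluster led by Saa3 and Cxcl9 had 5 control and 483 ACD cells. A shift in make-up and a change within the same cells therefore cannot be told apart by it. The share of genes past the fold call was 9.76% in T/NK/ILC-like cells (2.944%) and 3.455% in dFB-like cells (1.097%) with 1 UMI per 1000000 added, and 1.808% in T/NK/ILC-like cells with no filter. Thinned to 1000 UMIs, ACD shares were 28.66% for Il7r in gamma-delta T-like cells, 27.8% for Il2rb in NK/ILC1-like cells and 23.59% for Il2ra in Treg-like cells, since fewer UMIs were drawn. The make-up weighting and the return of mixed sub-clusters were chosen after seeing the data. Each condition is 1 library, so no replicate could be left out and mouse-to-mouse spread is unknown. No paired analysis was possible because each condition is 1 library. Low genes limit the rest: Il15 in endothelial-like cells rests on 3 control UMIs.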

Other observations

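The other cytokines of the pathway list had few UMIs in T/NK/ILC-like cells. Il21, a product of helper T cells, had 0 UMIs in all control cells and 46 in ACD, 43 of them in T/NK/ILC-like cells (2.02 UMIs per 1000000, 1.47 to 2.73), and Il9 had 0 and 3. Il4 had 38 UMIs in control and 704 in ACD, of which 4 and 12 lay in T/NK/ILC-like cells. Tslp, an epithelial and stromal cytokine, was at 4.06 and 6.35 in dFB-like cells and at 13.0 and 21.7 in endothelial-like cells. Its receptor chain Crlf2 was at 102 and 133 in Treg-like cells and at 124 and 104 in phagocyte-like cells.

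Clusters that were given no name held 215 of the 537 Il15 UMIs in control and 255 of 796 in ACD, more than any named class. Among these clusters the level was highest in that led by Ccl11 and 6030408B16Rik (112 and 100 cells). It was at 19.5 (9.34 to 35.8, 10 UMIs) in control and 29.4 (17.7 to 46.0, 19 UMIs) in ACD. The cluster led by Angptl7 and Cilp2 (566 and 634 cells) was at 16.9 and 13.3, and that led by Gdf5 and Mpped2 (586 and 539 cells) at 3.73 and 10.2 (log2 ratio 1.46, 0.44 to 2.59). The cluster led by Tnn and Vcan (81 and 63 cells) had the highest Il15ra level among those with at least 30 UMIs, at 35.5 and 56.1. A lymphocyte sub-cluster led by Hmmr and Klrg1, with 24 cells in ACD, had an Il2ra level of 421 (349 to 503), above that of Treg-like cells. Its best-matching marker list was that of Treg cells, but the naming rule left it unnamed, so it is not shown to be another cell type.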
